A study of Mus musculus with 4 samples.

Results

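The hepatic insulin cascade from the insulin receptor to AKT and FOXO1 was described at the RNA level by 9 genes, chosen by name: the receptor gene Insr, the receptor substrates Irs1 and Irs2, the phosphoinositide 3-kinase (PI3K) subunits Pik3r1 and Pik3ca, the kinases Akt1, Akt2 and Gsk3b, and the transcription factor Foxo1. They are 9 of the 25655 genes in the deposited table, and each was listed there once and measured in every library. Liver polyA RNA was sequenced from 2 HFD-WT and 2 HFD-KO libraries of male mice fed a high-fat diet (HFD) for 12 weeks from 5 weeks of age. HFD-KO mice lacked ADAR2 (ADAR2-/-), an enzyme that edits adenosine to inosine in RNA, and HFD-WT mice carried it (ADAR2+/+). The GluR-B R/R allele, present in all mice of both genotypes, supplies the edited form of a glutamate receptor that ADAR2-deficient mice need to survive, and both came from crosses of heterozygotes on a B6129S background. The deletion is present in the whole body, so a difference in the liver need not arise in liver cells. Whether a library holds 1 mouse or several, and whether the mice were fed or fasted when the livers were taken, is not given in the sources used here. For a gene set analysis of these livers the study names more mice per group than there are libraries, so a library may be a pool. The p-values below therefore set the difference between the groups against the spread between libraries, which need not be the spread between mice.

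Insulin binds its receptor on the hepatocyte, and the activated receptor phosphorylates IRS1 and IRS2, which recruit PI3K. The lipid product of PI3K brings AKT to the membrane, where it is activated by phosphorylation, and AKT in turn phosphorylates and restrains GSK3β, which frees glycogen synthase, and FOXO1, which then leaves the nucleus and no longer drives genes of glucose production. Most of this signalling runs through phosphorylation and lipid messengers, which RNA sequencing does not measure. RNA levels bear on a slower layer of the pathway: Irs2 is a textbook target of FOXO1 and of the cAMP-responsive factor CREB in the fasted liver, whereas genes of fatty acid synthesis are induced by insulin.

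The libraries held between 24480798 and 28691330 counts, and 12967 genes passed the filter on low counts. Adarb1, which encodes ADAR2, had 454 and 545 counts in HFD-WT and 164 and 228 counts in HFD-KO, with a log2 fold change of -1.17 and an adjusted p of 0.159 (edgeR's quasi-likelihood test, adjusted by Benjamini-Hochberg over the genes tested), so the libraries followed their labels in direction but Adarb1 reads were still present in HFD-KO. Over the 9 alternative analyses the adjusted p of Adarb1 ran from 3.11e-07 to 0.971 and was under 0.05 in 5. The hepatocyte markers, among them Alb and Ttr, summed to between 76990 and 89260 CPM (counts scaled to each library's normalized size), whereas the adipocyte markers summed to at most 0.266 CPM, with 1 of 4 at 0 in every library and none passing the filter. All 6 hepatocyte estimates were higher in HFD-KO, 0 of them at an unadjusted p under 0.05, and the 6 sinusoidal endothelial markers summed to 212.3 and 233.4 CPM in HFD-WT and to 207.0 and 220.1 CPM in HFD-KO. Other lists differed more. The 8 Kupffer cell markers summed to 240.6 and 309.2 CPM in HFD-WT and to 193.7 and 190.6 CPM in HFD-KO. The 6 stellate cell markers summed to 301.5 and 336.7 CPM against 273.8 and 207.9 CPM, the 5 cholangiocyte markers to 71.5 and 90.4 CPM against at most 59.5 CPM, and the 5 blood markers to 757.1 and 600.5 CPM against 810.7 and 1146 CPM. HFD-KO replicate 1 stood apart in B and plasma cell markers, at 117.7 CPM against 13.6 to 16.3 CPM in the other libraries. At an unadjusted p under 0.05 by edgeR, 5 Kupffer, 3 stellate, 1 cholangiocyte and 1 sinusoidal endothelial markers were lower. At that threshold 3 blood and 3 B and plasma cell markers were higher. Among all genes tested 4.73% were lower and 4.25% higher. Pancreas markers summed to between 8.96 and 11.6 CPM and skeletal muscle markers to at most 1.17 CPM.

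The genes of the cascade differed in level along its course. Levels were compared between genes only on the authors' TPM, a scale that divides reads by gene length and sums alike in every library. The AKT genes stood highest, with a mean of 37.7 ± 1.89 TPM for Akt1 and 33.0 ± 1.55 TPM for Akt2 (SD, n = 4), and the receptor substrates stood lowest, with 5.96 ± 1.56 TPM for Irs2 and 4.77 ± 0.78 TPM for Irs1. Akt1 lay above 86.8% of the 17301 genes with a count, and Irs1 above 54.5% of them. Between these ends came Insr at 21.5 ± 2.44 TPM, Pik3r1 at 19.2 ± 1.31 TPM, Foxo1 at 12.5 ± 2.18 TPM, Gsk3b at 7.91 ± 0.52 TPM and Pik3ca at 6.87 ± 0.65 TPM. The ranges of neighbours over the 4 libraries did not overlap at 3 places in this order, between Akt2 and Insr, between Pik3r1 and Foxo1, and between Foxo1 and Gsk3b. The other neighbours overlapped, namely Akt1 with Akt2, Insr with Pik3r1, Gsk3b with Pik3ca, Pik3ca with Irs2 and Irs2 with Irs1. Within each library, however, Akt1 stood above Akt2 and Gsk3b above Pik3ca, so that 5 of the 8 neighbour pairs kept their order in every library, and the other 3 did not. The order of the AKT genes rests on the lengths used, 3.345 kb for Akt1 and 6.485 kb for Akt2. Before division by length Akt2 had the higher CPM in every library.

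**Figure D1:**
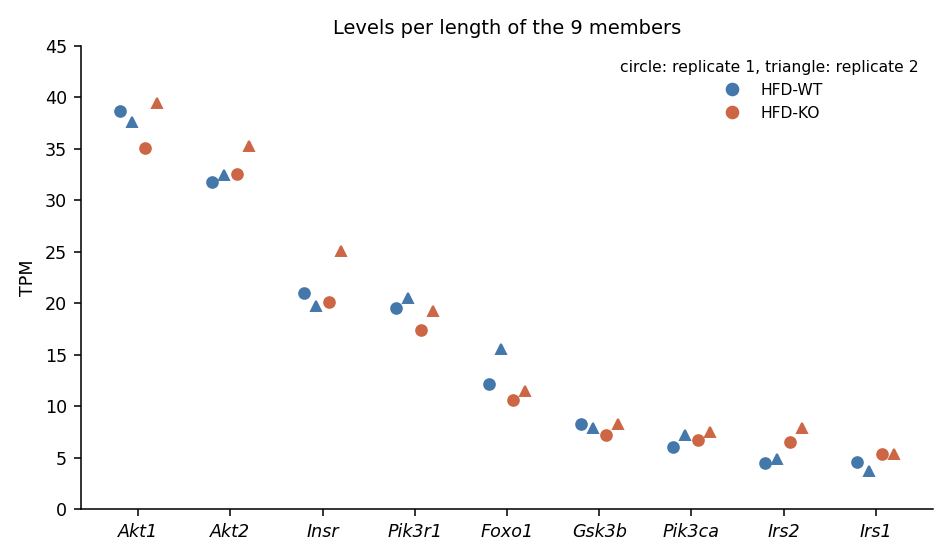
Level per length of the 9 genes in TPM (y axis, linear, from 0), ordered by their mean over the 4 libraries, with HFD-WT in blue and HFD-KO in red, circles for replicate 1 and triangles for replicate 2. The AKT genes lie between 31.7 and 39.4 TPM and the receptor substrates between 3.73 and 7.88 TPM, and in both substrates the HFD-KO points lie above the HFD-WT points.

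The receptor substrates had the largest differences of the 9 genes. Irs2, one of the substrates through which the hepatic receptor reaches PI3K, measured 14.3 and 15.2 CPM in the HFD-WT libraries and 21.8 and 25.5 CPM in the HFD-KO libraries. Both HFD-KO libraries lay above both HFD-WT libraries, with means of 14.7 ± 0.64 CPM and 23.7 ± 2.56 CPM (SD, n = 2 each). The log2 fold change was 0.68 ± 0.11 (SE; 95% interval 0.43 to 0.93), or 1.60-fold, with an unadjusted p of 0.000282 and an adjusted p of 0.115 by edgeR's quasi-likelihood test, so Irs2 did not pass the adjusted threshold of 0.05. It ranked 30 by p among the 12967 genes tested. With all 4 libraries kept, its adjusted p was 0.00592 by edgeR without the filter on low counts and 0.00935 by DESeq2. In these settings more genes passed over the whole table, 81 higher and 81 lower without the filter and 60 and 60 by DESeq2. The main fit had 7 and 3. The adjusted p of Irs2 was 0.119 with DESeq2 size factors, 0.126 by library size alone and 0.119 with the replicate block, all by edgeR. In all 9 alternative analyses the estimate stayed above 0, between 0.57 and 0.79.

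Irs1, the other main substrate of the receptor, measured 21.3 and 16.7 CPM in HFD-WT and 25.8 and 25.0 CPM in HFD-KO. Its groups did not overlap either, but the HFD-WT libraries were further apart than those of Irs2, with means of 19.0 ± 3.22 CPM and 25.4 ± 0.59 CPM. The log2 fold change was 0.42 ± 0.12 (95% interval 0.13 to 0.70), with an unadjusted p of 0.00995 and an adjusted p of 0.383 by edgeR's quasi-likelihood test. Leaving out HFD-WT replicate 2, the library with the lowest Irs1, brought the estimate to 0.26 with an unadjusted p of 0.0693 in the same test, and leaving out HFD-WT replicate 1 brought it to 0.60. Together the 2 substrates amounted to 9.13 and 8.63 TPM in HFD-WT and to 12.0 and 13.2 TPM in HFD-KO. Irs3 and Irs4, the remaining genes of the family, were not tested, with at most 0.364 CPM for Irs3 and 0 counts for Irs4 in all libraries.

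The windows upstream of the start sites of Irs1 and Irs2 are shown because these were the members with the largest differences and because both hold the same pair of short motifs close together. Igfbp1, a FOXO1 target in liver described further below, is shown beside them for its insulin-responsive sequence. Each sequence runs 5′ to 3′ on the strand of the gene, from position -160 to position -11 before the RefSeq start, on build GRCm38.p6, at chr1:82291450-82291599 on the minus strand for Irs1, chr8:11008940-11009089 on the minus strand for Irs2 and chr11:7197627-7197776 on the plus strand for Igfbp1. Capitals mark CAAAACA, the core of the insulin response sequence, which reads TGTTTTG on the other strand, and CACGTG, the E-box palindrome.
Irs1: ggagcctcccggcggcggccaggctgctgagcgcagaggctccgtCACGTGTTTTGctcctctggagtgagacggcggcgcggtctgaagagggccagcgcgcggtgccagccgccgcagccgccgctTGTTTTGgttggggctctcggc
Irs2: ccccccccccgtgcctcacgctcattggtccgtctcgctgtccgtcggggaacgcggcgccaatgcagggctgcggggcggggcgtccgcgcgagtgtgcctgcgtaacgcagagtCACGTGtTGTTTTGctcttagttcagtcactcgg
Igfbp1: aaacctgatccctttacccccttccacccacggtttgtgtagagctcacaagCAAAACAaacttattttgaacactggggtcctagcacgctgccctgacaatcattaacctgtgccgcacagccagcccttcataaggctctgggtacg

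In Irs2 the E-box began at position -44 and TGTTTTG at position -37, with a single base between them. In Irs1 the E-box began at position -115 and shared 2 bases with the TGTTTTG at -111, and a further TGTTTTG began at -32. Igfbp1 held CAAAACA at -108 on the strand of the gene. Over all 32851 RefSeq windows of 250 bases before to 50 bases after a start, read on both strands, 6.28% held CAAAACA, 7.15% held CACGTG and 3.65% held GTAAACA, a forkhead consensus. Of the 8 members with a window in the table, 2 held CAAAACA and the same 2 held CACGTG, and 1, Akt1, held GTAAACA in 1 of its 2 windows, at -161. Insr had no entry. Of 15 other pathway genes named in this report that had a window, 1 held CAAAACA, 3 held GTAAACA and 0 held CACGTG. The gene with CAAAACA was Igfbp1, printed above. A match in these letters is a description of the window and not evidence of a bound factor.

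Insr, which encodes the receptor itself, measured 100.3 and 91.8 CPM in HFD-WT and 100.1 and 121.5 CPM in HFD-KO. HFD-KO replicate 2 was high, while HFD-KO replicate 1 lay between the HFD-WT libraries, so the groups overlapped. The log2 fold change was 0.21 ± 0.11 (95% interval -0.05 to 0.46), with an adjusted p of 0.642 by edgeR's quasi-likelihood test. Without HFD-KO replicate 1 it was 0.34, and without HFD-KO replicate 2 it was 0.06, so the size of the difference depended on 1 library. Igf1r, the receptor for insulin-like growth factor 1 and the closest relative of Insr in the list, was low in this tissue, with 2.59, 2.62, 2.55 and 3.52 CPM in the 2 HFD-WT and 2 HFD-KO libraries, and Insr exceeded it per length by 46.6-fold and 42.2-fold in HFD-WT and by 47.3-fold and 41.5-fold in HFD-KO. The log2 ratio of the receptors differed by less than 0.01 between the group means (-9.11e-05), less than the spread between replicates.

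Neither of the PI3K subunit genes was separated between the genotypes. Pik3r1, which encodes the regulatory subunit p85α that docks on phosphorylated IRS proteins, measured 76.5 and 78.4 CPM in HFD-WT and 71.2 and 76.7 CPM in HFD-KO, and its log2 fold change was -0.07 ± 0.08 (95% interval -0.26 to 0.12). Pik3ca, which encodes the catalytic subunit p110α, measured 27.5 and 32.2 CPM in HFD-WT and 31.9 and 34.8 CPM in HFD-KO, with a log2 fold change of 0.16 ± 0.10 (95% interval -0.08 to 0.40). The estimate of Pik3ca was 0.046 without HFD-WT replicate 1 and 0.28 without HFD-WT replicate 2, and that of Pik3r1 lay between -0.12 and -0.01 with 1 library left out. The groups overlapped for both genes, and the adjusted p by edgeR's quasi-likelihood test was 0.851 for Pik3r1 and 0.696 for Pik3ca. Regulatory RNA exceeded catalytic RNA per length in every library. The ratio of Pik3r1 to Pik3ca on TPM was 3.25 and 2.84 in HFD-WT and 2.60 and 2.57 in HFD-KO, a difference of -0.23 on the log2 scale that was -0.14 without HFD-WT replicate 1. The ratio was lower in both HFD-KO libraries, at an exact permutation p (two-sided) of 0.333, which is the smallest that 2 libraries against 2 can give.

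Akt1 and Akt2, the AKT isoforms of most tissues, of which AKT2 is the one chiefly tied to insulin action, stood close together in both genotypes. Akt1 measured 60.1 and 57.1 CPM in HFD-WT and 57.0 and 62.3 CPM in HFD-KO, with a log2 fold change of 0.03 ± 0.09 (95% interval -0.18 to 0.23) whose sign turned negative when libraries were scaled by library size alone (-0.02) and when HFD-WT replicate 2 (-0.0079) or HFD-KO replicate 2 (-0.04) was left out. Akt2 measured 95.6 and 95.5 CPM in HFD-WT and 102 and 108 CPM in HFD-KO. Its groups did not overlap, but the log2 fold change was only 0.14 ± 0.08 (95% interval -0.04 to 0.32), with an unadjusted p of 0.117 and an adjusted p of 0.662 by edgeR's quasi-likelihood test. The intervals of both genes lie below a rise or fall of 1.5-fold. Akt2 reached 0.82 and 0.86 times the level of Akt1 per length in HFD-WT and 0.93 and 0.89 times in HFD-KO, an increase of 0.11 in the log2 ratio at an exact permutation p (two-sided) of 0.333, again the smallest possible. Akt1 and Akt2 together summed to 70.4 and 70.1 TPM in HFD-WT and to 67.7 and 74.7 TPM in HFD-KO, so the sums overlapped.

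Gsk3b, the glycogen synthase kinase that AKT inhibits, was the member with the smallest difference, with 34.7 and 32.2 CPM in HFD-WT and 31.5 and 35.4 CPM in HFD-KO. The log2 fold change was 1.84e-05 ± 0.09, and the 95% interval of -0.22 to 0.22 bounds any difference to well under 1.5-fold in either direction. Its sister gene Gsk3a was the more abundant per length, since Gsk3b reached between 0.168 and 0.179 times its level in the 4 libraries. The sum of both genes was 54.4 and 54.0 TPM in HFD-WT and 50.1 and 56.9 TPM in HFD-KO.

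Foxo1, the factor at the end of the branch that controls glucose production, measured 52.8 and 66.3 CPM in HFD-WT and 48.5 and 50.8 CPM in HFD-KO. Both HFD-KO libraries were lower than both HFD-WT libraries, but the HFD-WT libraries were themselves far apart (59.6 ± 9.56 CPM against 49.7 ± 1.67 CPM). The log2 fold change was -0.26 ± 0.12 (95% interval -0.54 to 0.01), with an unadjusted p of 0.0589 and an adjusted p of 0.575 by edgeR's quasi-likelihood test. It was -0.09 without HFD-WT replicate 2, the library with the highest Foxo1, and -0.42 without HFD-WT replicate 1. Foxo3, a related factor that AKT also phosphorylates, had 49.4 and 59.3 CPM against 44.3 and 53.6 CPM, so its groups overlapped. Like Foxo1 it was highest in HFD-WT replicate 2 and lowest in HFD-KO replicate 1. Without HFD-KO replicate 1 the estimate was -0.02 for Foxo3 and -0.23 for Foxo1. Foxo4 had 28.3 and 28.5 CPM against 29.6 and 31.0 CPM. The log2 ratio of Foxo1 to Foxo3 per length differed by -0.10 between the genotypes and overlapped, at an exact permutation p (two-sided) of 0.667.

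**Figure D2:**
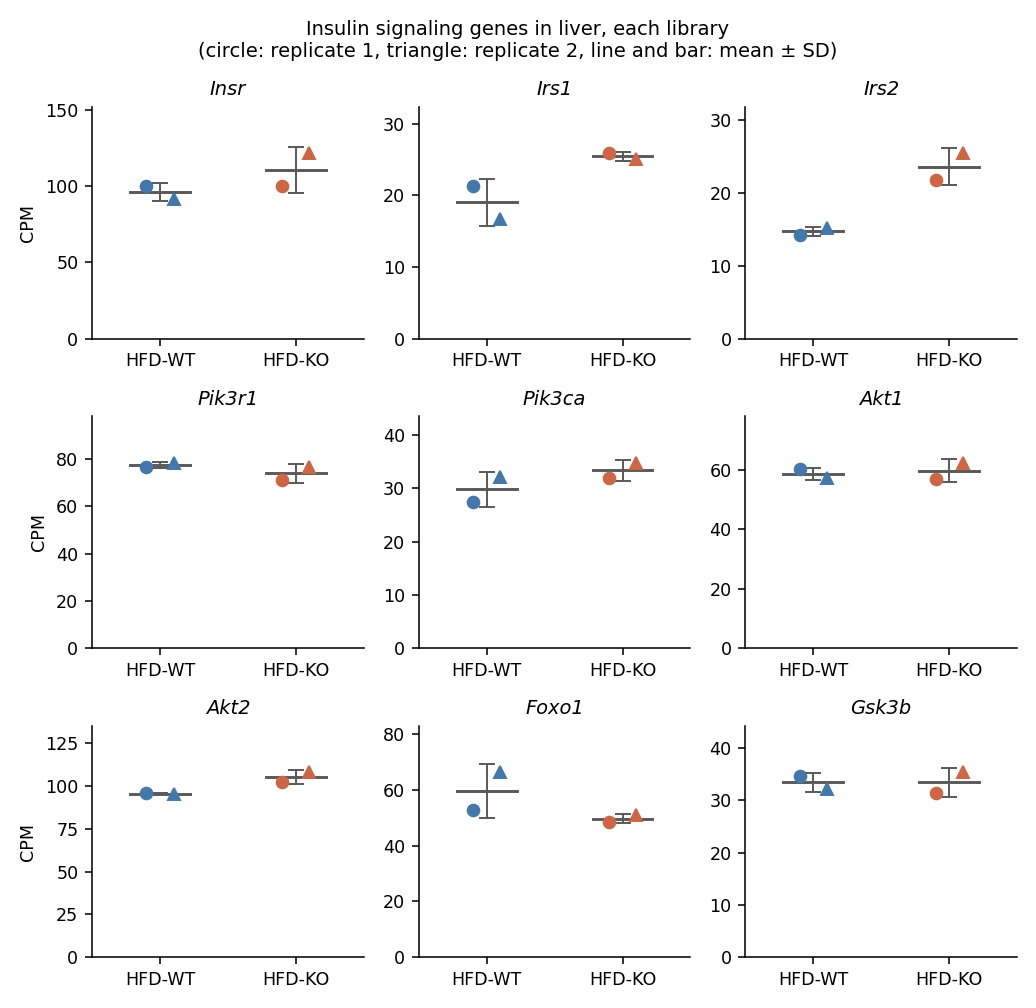
CPM of each of the 9 genes (y axes, linear, from 0, 1 panel a gene) in the HFD-WT and HFD-KO libraries, with circles for replicate 1, triangles for replicate 2, and lines and bars for mean ± SD. The groups are separated for Irs1, Irs2 and Akt2, higher in HFD-KO, and for Foxo1, lower in HFD-KO.

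Counted over the cascade, 0 of the 9 genes passed an adjusted p of 0.05 by edgeR, against 10 of the 12967 genes tested (0.0771%). Irs1 and Irs2 were the 2 members higher at an unadjusted p under 0.05, against 4.25% of all genes tested, and 0 members were lower, against 4.73%. Both HFD-KO libraries lay above both HFD-WT libraries for 3 members, Irs1, Irs2 and Akt2, against 20.5% of all genes, and below them for 1 member, Foxo1, against 20.3%. The estimate was above 0 in 7 members, although the sign of Akt1 turned when libraries were scaled by library size alone and that of Gsk3b turned under every other scaling, and the median log2 fold change of the 9 was 0.14, beside 0.0068 over all genes tested. The members were picked by name with earlier results of these data known, so these counts are a description. Counts were also simulated at the depth and fitted spread of these libraries, independently for each gene, so differences shared by many genes of a library were left out. The same test found 64 of 200 genes changed 1.5-fold, with 9 false calls, and 157 of 200 changed 2-fold, with 15. The changed genes were drawn from all levels, so these are not the rates for a gene at the level of Irs2. In these livers, fewer cells of a type and less RNA per cell cannot be told apart.

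**Figure D3:**
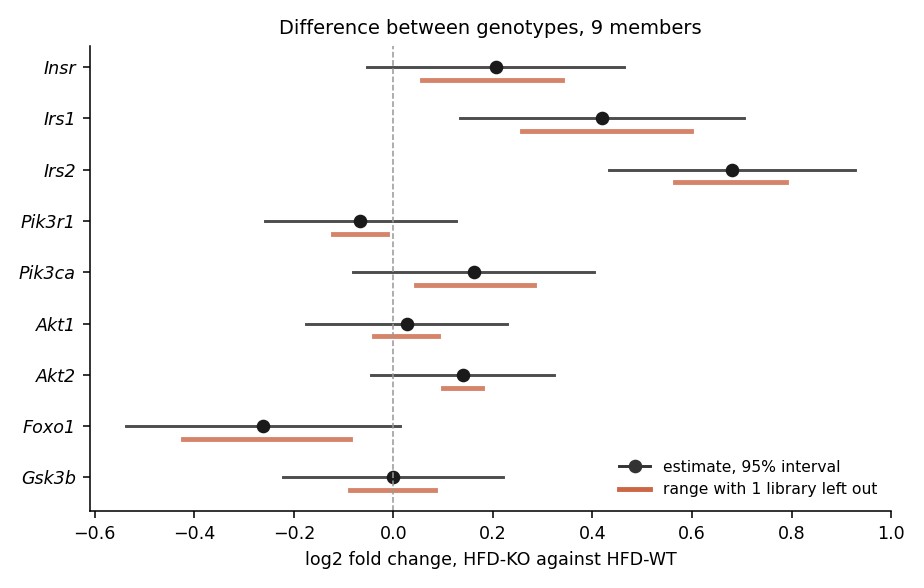
Log2 fold change in HFD-KO relative to HFD-WT (x axis) for the 9 genes from edgeR, with the 95% interval as a dark line and the range of the estimate over the 4 analyses that each leave out 1 library as a red line. The intervals of Irs1 (0.13 to 0.70) and Irs2 (0.43 to 0.93) lie above 0 before adjustment for multiple testing, and those of the other 7 genes include 0.

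The balance of the substrates did not separate the genotypes. The log2 ratio of Irs2 to Irs1 per length was -0.04 and 0.39 in HFD-WT and 0.29 and 0.56 in HFD-KO, a difference of 0.25 at an exact permutation p (two-sided) of 0.667. It was 0.03 without HFD-WT replicate 1 and 0.47 without HFD-WT replicate 2. Of the 6 ratios computed, those of Akt2 to Akt1 and of Pik3r1 to Pik3ca did not overlap between the genotypes and those of Irs2 to Irs1, Insr to Igf1r, Gsk3b to Gsk3a and Foxo1 to Foxo3 did. With a smallest possible p of 0.333, none of them could reach 0.05, with or without adjustment over the 6.

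The other genes of the pathway were taken from 8 lists by role, of which 86 genes were in the table and 81 were tested. By edgeR's quasi-likelihood test 0 of the 81 passed an adjusted p of 0.05, and 5 were higher and 3 lower at an unadjusted p under 0.05. Their median log2 fold change was 0.0399, with 45 estimates above and 36 below 0. Among all genes tested, 4.25% were higher and 4.73% lower at that threshold. Both HFD-KO libraries lay above both HFD-WT libraries for 17 of the 81 genes, against 20.5% of all genes, and below them for 22, against 20.3%. Of the 8 genes past the unadjusted threshold, Igfbp1 was the 1 that stayed past it in all 4 analyses without 1 library, and the other 7 lost it at least once. The lists upstream of AKT held few genes past the unadjusted threshold. Of the 4 tested genes of receptors and hormone handling, 0 had an unadjusted p under 0.05. Of the 8 tested adaptors 1 did, Sos1, the exchange factor that links the receptor to RAS, with 24.6 and 21.7 CPM in HFD-WT and 26.4 and 27.8 CPM in HFD-KO (log2 fold change 0.23, and 0.14 without HFD-WT replicate 2, unadjusted p 0.0459 and adjusted p 0.543 by edgeR).

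Among the 10 other PI3K subunits 0 had an unadjusted p under 0.05. The largest difference in that list was in Pik3cg, the catalytic subunit of leukocytes, with 1.28 and 1.35 CPM in HFD-WT and 0.836 and 0.963 CPM in HFD-KO (log2 fold change -0.54, unadjusted p 0.137 by edgeR). The Kupffer cell markers moved the same way, with 7 of 8 lower and a median log2 fold change of -0.48, and their part in the value of Pik3cg was not tested. Among the 8 kinases and partners upstream of AKT, 0 had an unadjusted p under 0.05. Pdpk1, the kinase that phosphorylates the activation loop of AKT, had 22.9 and 22.1 CPM against 23.2 and 27.6 CPM.

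Inhibitors of the cascade had estimates on both sides of 0. Of 20 tested, 12 had an estimate above and 8 below 0. The inhibitor with an unadjusted p under 0.05 was Trib3, a pseudokinase that binds AKT, with 15.5 and 14.7 CPM in HFD-WT and 17.5 and 25.9 CPM in HFD-KO. Its log2 fold change was 0.52 ± 0.17, with an adjusted p of 0.445 by edgeR's quasi-likelihood test, and HFD-KO replicate 2 carried most of it, since the estimate without that library was 0.21. Of 12 tested substrates of AKT, 1 was higher and 1 lower at an unadjusted p under 0.05. Akt1s1, which encodes the mTORC1 partner PRAS40, had 40.0 and 43.5 CPM against 48.5 and 51.5 CPM (log2 fold change 0.26). Tbc1d1, a Rab GTPase-activating protein of glucose transport, had 8.22 and 10.2 CPM against 7.33 and 6.57 CPM (log2 fold change -0.40, and -0.24 without HFD-WT replicate 2).

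Genes named as FOXO1 targets in textbooks did not differ in 1 direction. Of 15 tested, 10 had an estimate above and 5 below 0, 2 were higher and 0 lower at an unadjusted p under 0.05, and the median log2 fold change was 0.0649. Igfbp1, a secreted binding protein that insulin represses, measured 48.3 and 68.9 CPM in HFD-WT and 93.6 and 293 CPM in HFD-KO. Both HFD-KO libraries were higher, but HFD-KO replicate 2 lay far above the other, and the log2 fold change of 1.72 ± 0.46 had an unadjusted p of 0.00669 and an adjusted p of 0.358 by edgeR's quasi-likelihood test. Without HFD-KO replicate 2 the estimate was 0.68, and without HFD-KO replicate 1 it was 2.32. Gadd45a, a growth arrest gene, had 6.49 and 4.94 CPM in HFD-WT and 7.37 and 10.2 CPM in HFD-KO (log2 fold change 0.62, adjusted p 0.451 by edgeR), and the estimate of Gadd45a was 0.36 without HFD-KO replicate 2 and 0.44 without HFD-WT replicate 2.

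Further genes of that list and of the inhibitors were chosen after their values were seen, and some differed widely between the HFD-KO libraries. G6pc, the last enzyme of glucose production, measured 170 and 255 CPM in HFD-WT and 378 and 245 CPM in HFD-KO, highest in HFD-KO replicate 1. Its HFD-WT libraries were far apart as well. The log2 fold change of G6pc was 0.55, with an unadjusted p of 0.0503 and an adjusted p of 0.556 by edgeR's quasi-likelihood test. With 1 library left out that estimate stayed above 0, between 0.21 and 0.87. Txnip, 1 of the 5 targets estimated lower, had 120 and 142 CPM against 90.6 and 118 CPM. Both of its HFD-KO libraries lay below both HFD-WT libraries. The log2 fold change of Txnip was -0.33, with an unadjusted p of 0.0508 and an adjusted p of 0.556 by edgeR's quasi-likelihood test. Pdk4, which restrains pyruvate oxidation in the fasted state, measured 14.4 and 13.8 CPM against 10.9 and 53.1 CPM, highest in HFD-KO replicate 2, and its log2 fold change of 1.17 became -0.38 without that library. Socs3, a cytokine-induced inhibitor of the receptor, had 12.6 and 9.31 CPM against 9.04 and 18.1 CPM, with a log2 fold change of 0.30 that became -0.28 without HFD-KO replicate 2. Pck1, the enzyme that commits oxaloacetate to glucose production, measured 2367 and 2538 CPM against 2720 and 2232 CPM, with a log2 fold change of 0.01 whose sign changed in 3 of 9 alternative analyses.

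The list of lipogenic genes induced by insulin was the one in which every tested gene was estimated lower in HFD-KO, with 4 of 4 below 0, 2 at an unadjusted p under 0.05 against 4.73% of all genes tested, and a median log2 fold change of -0.26. Pnpla3, also on this list and picked after its values were seen, did not pass the filter on low counts. It had 2 and 1 counts in HFD-WT and 5 and 5 counts in HFD-KO. Fasn, the fatty acid synthase, measured 191 and 226 CPM in HFD-WT and 182 and 134 CPM in HFD-KO (log2 fold change -0.40, adjusted p 0.507 by edgeR). Elovl6, which lengthens the products of that enzyme, measured 37.5 and 35.5 CPM against 31.1 and 23.4 CPM (log2 fold change -0.42, adjusted p 0.423 by edgeR). In both genes HFD-KO replicate 2 was the lowest library, and without it the estimates were -0.19 for Fasn and -0.23 for Elovl6. Srebf1, which encodes the lipogenic factor SREBP1 and was likewise picked after its values were seen, had 130 and 127 CPM against 123 and 116 CPM. Its log2 fold change was -0.11, with an adjusted p of 0.713 by edgeR. Acly, the remaining tested gene of the list and also picked afterwards, had 95.4 and 102 CPM against 99.9 and 87.9 CPM. The groups of Acly overlapped, and its log2 fold change was -0.07 with an adjusted p of 0.862 by edgeR.

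**Figure D4:**
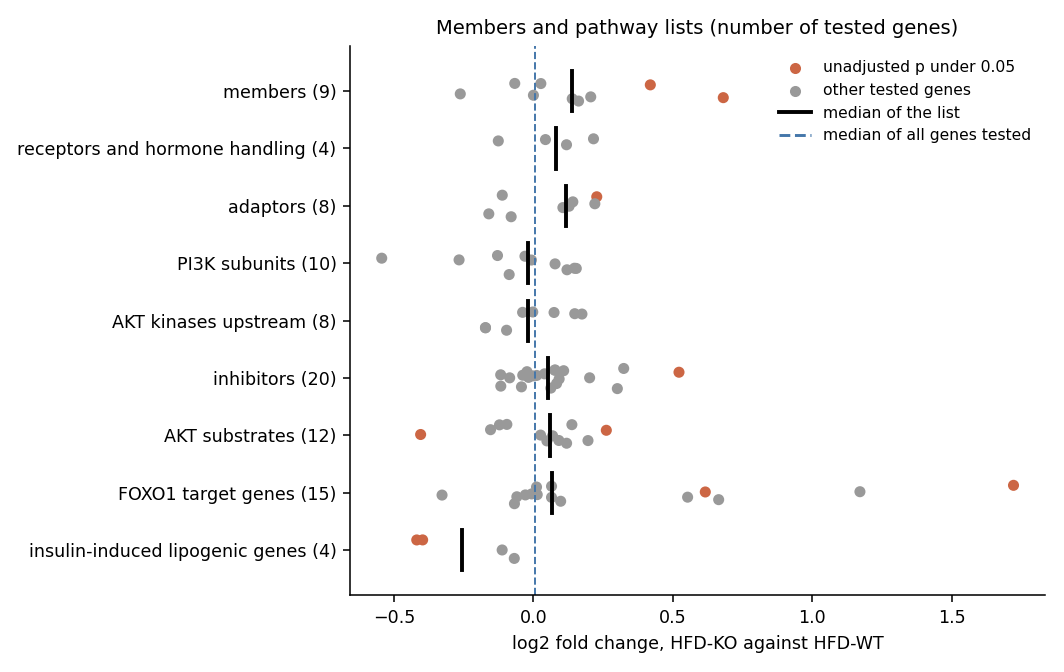
Log2 fold change in HFD-KO relative to HFD-WT (x axis) of every tested gene of the cascade and of the 8 pathway lists, 1 row a list with its number of tested genes, red where the unadjusted p is under 0.05, with the median of each list as a black bar and the median of all genes tested as a dashed line. The lipogenic genes lie below 0 with a median of -0.26, and the medians of the other pathway lists lie between -0.02 and 0.12.

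**Figure D5:**
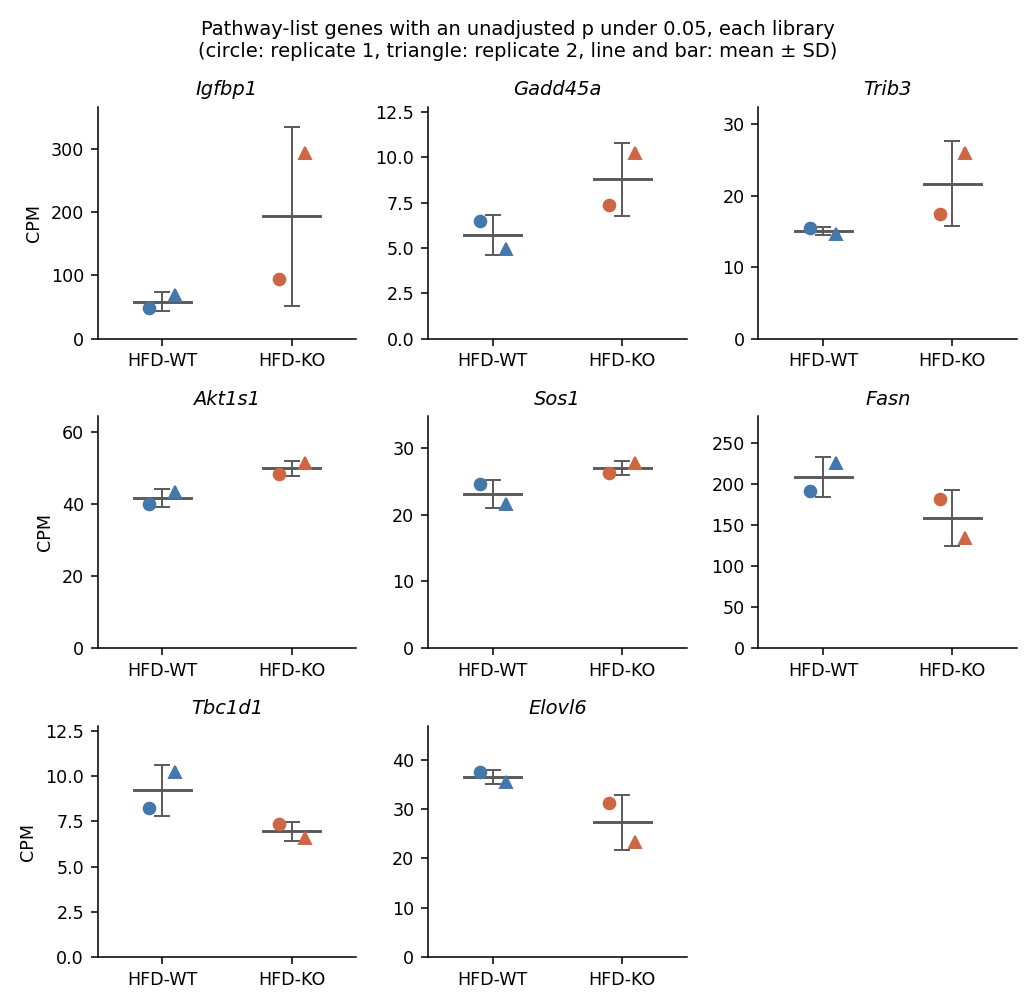
CPM (y axes, linear, from 0, 1 panel a gene) of the 8 pathway genes with an unadjusted p under 0.05 in the HFD-WT and HFD-KO libraries, with circles for replicate 1, triangles for replicate 2, and lines and bars for mean ± SD. In all 8 genes the triangle of HFD-KO, replicate 2, lies furthest from HFD-WT, at 293 CPM in Igfbp1.

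For each member the pathway gene with the most similar course over the 4 libraries was found by the root mean square (RMS) difference of centred log2 CPM among 79 candidates. The partners were Pdpk1 for Insr (RMS difference 0.0311, beside 0.148 for the RMS of Insr around its own mean), Sos1 for Irs1 (0.124 beside 0.248) and Trib3 for Irs2 (0.163 beside 0.349). Foxo1 was nearest to Foxo3 (0.0914 beside 0.174), and Akt2 to Foxo4 (0.0246 beside 0.0747). For Pik3ca the nearest was Sh2b2, an adaptor of the receptor (0.0513 beside 0.124), and for Pik3r1 it was Mapkap1, a subunit of mTORC2 (0.0331 beside 0.0525). Both Akt1 (0.0114 beside 0.0541) and Gsk3b (0.0323 beside 0.0708) were nearest to Rps6kb1, the ribosomal S6 kinase, which had 26.9 and 25.5 CPM in HFD-WT and 26.0 and 27.9 CPM in HFD-KO. With 4 libraries that share depth and composition, a small distance describes these libraries and carries no test.

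On GRCm39, the build of the deposited positions, the members lie on 7 chromosomes. Insr is at chr8:3172061-3329617 and Irs2 at chr8:11034681-11058458, both on the minus strand, and Irs1 is at chr1:82210822-82269137, also on the minus strand. Pik3ca, at chr3:32451820-32522635, and Foxo1, at chr3:52175757-52260642, share a chromosome and the plus strand. Pik3r1 is at chr13:101817071-101904725 on the minus strand, Akt1 at chr12:112620255-112641318 on the minus strand, Akt2 at chr7:27290977-27340251 on the plus strand and Gsk3b at chr16:37909363-38066446 on the plus strand. Other annotated genes overlap Irs1, Pik3r1, Pik3ca and Foxo1, and none of them had more than 27 counts in a library, against 414 to 2904 counts for the members. How the counting treated reads in such overlaps is not given in the sources used here.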

How the data were processed

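Liver RNA of 2 HFD-WT and 2 HFD-KO libraries was extracted with TRIzol, prepared with the MGIEasy RNA Directional kit and sequenced paired-end on a DNBSEQ-G400RS. The authors aligned reads with the MGI Tech tool and quantified them in Partek Genomics Suite with GENCODE. Versions, strand use and the treatment of multiply aligned reads are not given in the sources used here. The methods name mm10, and the deposited positions are GRCm39. The authors' table gives whole-number counts per gene without normalization, which were tested here. It also gives the authors' RPKM, counts per length and library total, used here for lengths and as an alternative to TPM, and the authors' TPM, scaled to a fixed sum per library, used for levels between genes. A further set of deposited values, labelled CPM, is a score with its own adjustment of library size and was not used.

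Groups came from the sample labels. Genotypes were compared on counts with edgeR 4.0.16 under R 4.3.3 (filterByExpr by group, TMM, two-sided quasi-likelihood test, Benjamini-Hochberg adjustment over 12967 genes). CPM values were computed from counts over the TMM-adjusted library size. Intervals use the fit's 7.34 degrees of freedom, of which 5.34 are prior degrees of freedom that edgeR takes from the spread over all genes tested. The HFD-WT libraries held 28691330 and 26907857 counts and the HFD-KO libraries 26540624 and 24480798 counts, at which 3 counts correspond to 0.104 to 0.126 CPM, counting error only. Ratios within a library were compared by exact permutation in scipy 1.17.1. The procedure was tested on simulated data of 12848 genes (1.5-fold) and 12858 genes (2-fold), with 200 genes changed in each. It made 9 false calls beside 64 correct ones at 1.5-fold, and 15 beside 157 at 2-fold. In both, false calls were a larger share of the calls than the adjusted threshold of 0.05 allows on average. Alternatives were DESeq2 1.42.0 and its size factors, library size alone, no filter, a replicate block and leaving out each library.

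The members, lists and motifs were chosen with earlier results of these data known. Named were every member, Adarb1, each pathway-list gene with an unadjusted p under 0.05, the gene of each list with the largest log2 fold change at a mean of at least 1 CPM, and the nearest pattern of each member. Other genes are said to be chosen after their values were seen or serve as family members of a named gene. In the FOXO1 target list G6pc was present under that name and not as G6pc1. Promoter windows are from RefSeq (GRCm38.p6), with entries for 8 of 9 members and 15 of 16 named pathway genes. Protein sequences were not analysed here, and some genes of the pathway are not reported here.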

Additional observations from a re-analysis of the deposited data

How the results depend on the processing

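With 2 libraries per group, leaving out 1 leaves a lone library that is assumed to vary like the other group, and each member had at least 414 counts a library. In log2 units, counting error alone was 0.0653 beside a standard error of 0.105 for Irs2, and 0.0276 beside 0.11 for Insr. Over all genes, counts at an adjusted p under 0.05 were 7 higher and 3 lower. They were 4 and 2 by library size alone, 81 and 81 with no filter, 60 and 60 by DESeq2, 12 and 8 with the replicate block, and 0 to 376 and 0 to 329 with 1 library left out (0 and 0 without HFD-WT replicate 2, 376 and 329 without HFD-KO replicate 1). At an unadjusted p under 0.05 the 551 higher and 613 lower genes became 346 and 894 by library size alone, 298 and 373 by DESeq2, and 255 to 1095 and 207 to 1078 with 1 library left out. Library size alone moved the median log2 fold change of all genes from 0.0068 to -0.0391.

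Of the members, 1 was higher at an adjusted p under 0.05 with no filter and by DESeq2, and 0 to 2 with 1 library left out (2 without HFD-KO replicate 1). Irs2 passed at 0.68 with no filter and by DESeq2, and at 0.79 and 0.57 without HFD-KO replicate 1 or 2 (range 0.57 to 0.79), and Insr at 0.34 without HFD-KO replicate 1 (range 0.058 to 0.34). At an unadjusted p under 0.05, 1 to 3 members were higher with 1 library left out, and 1 was lower, Foxo1, by library size alone, with no filter and with the replicate block, and 0 to 1 with 1 library left out. Of the pathway genes, 1 higher passed the adjusted threshold with no filter, and 0 to 5 higher and 0 to 2 lower with 1 library left out. At the unadjusted threshold 8 were higher with no filter and 5 were lower by library size alone, and 5 to 10 were higher and 1 to 5 lower with 1 library left out.

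Some signs turned. Akt1 was -0.020 by library size alone and -0.040 to 0.091 with 1 library left out. Gsk3b was -0.0016 with DESeq2 size factors, -0.046 by library size alone, -0.0045 with no filter, -0.0015 by DESeq2, -0.0012 with the replicate block and -0.088 to 0.084 with 1 library left out. By library size alone Rps6kb1 was -0.0064 and Pck1 -0.032. With 1 library left out, Igf1r ran from -0.033 to 0.43, Rps6kb1 from -0.013 to 0.092, Pck1 from -0.14 to 0.15, Pdk4 from -0.38 to 1.91, Socs3 from -0.28 to 0.72, the log2 ratio of Insr to Igf1r from -0.094 to 0.093 and that of Foxo1 to Foxo3 from -0.20 to 0.0038. The order of levels was the same on the authors' RPKM and with each library left out, with 3 to 5 pairs of neighbours whose ranges did not overlap. The causes of these changes were not tested.

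The groups share replicate numbers, but no pairing is described, and same-numbered libraries did not deviate together (correlation -0.0764). With the replicate block, Adarb1 passed at -1.19 with an adjusted p of 0.04 and Irs2 was 0.68 with an adjusted p of 0.119 by edgeR.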
